A study of Ovis aries with 9 samples.

Results

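The inhibin, activin and bone morphogenetic protein (BMP) signalling genes were described in cultured ovine granulosa cells (GCs), the somatic cells that line the ovarian follicle and enclose the oocyte. The set was a list of 10 gene symbols (INHA, INHBA, INHBB, FST, BMPR1A, BMPR1B, BMPR2, ACVR1B, ACVR2A and TGFBR1), and a member was the row of the deposited gene table that carried the symbol. Of these, 9 had a row, 1 row each, among the 39157 genes of the table, and INHBB had none under its symbol and was not analysed here. Primary GCs of thin-tailed Han ewes came from small immature follicles pooled over many ovaries. Every culture first spent 8 h without glucose and serum and then 24 h in medium with glucose at 0 mM in group CON, at 8.4 mM in group LOW or at 33.6 mM in group HIGH, with 3 libraries per group. Because the follicle contents were pooled, and no source names separate animals for the cultures, p-values here measure the spread between these samples, which may be technical.

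Inhibins and activins are paired subunits of the TGF-β superfamily. An alpha subunit (INHA) joined to a beta subunit (INHBA or INHBB) gives inhibin, which GCs release into the blood and which lowers the secretion of follicle-stimulating hormone by the pituitary, whereas beta subunits joined to each other give activin. Follistatin (FST) binds activin and keeps it from its receptors. Ligands of this superfamily bind type II receptors such as ACVR2A and BMPR2, which then act on type I receptors. Among these, ACVR1B and TGFBR1 pass activin and TGF-β signals to SMAD2 and SMAD3, and BMPR1A and BMPR1B pass BMP signals to SMAD1, SMAD5 and SMAD9. In sheep, BMPR1B is known as a gene in which natural variation changes the ovulation rate.

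Levels are FPKM (fragments per kilobase, relative to sequencing depth) as deposited, divided by 1 factor per library (0.939 to 1.11) that brought the median of 11689 well expressed genes to a common value; they are called scaled FPKM below. The deposited tables named as read counts imply 48.0 to 71.3 fragments per kilobase at an FPKM of 1 over the 9 libraries. These tables do not hold numbers of reads. In some libraries the implied depth exceeds the pairs that the paper's clean reads can form, so it is only a rough guide. All 9 measured members passed the filter on low values. By that guide, INHBA had 198 fragments per kilobase in its lowest library and BMPR1B 3484 in its highest. Differences were tested with limma on log2(scaled FPKM + 0.1) over 25531 genes, and a call needed a Benjamini-Hochberg adjusted p under 0.05 together with a log2 fold change beyond 1 in either direction. Without the scaling factors the LOW minus CON values of all genes lay 0.11 lower on the log2 scale, and the shifts of the other comparisons were smaller. In bulk RNA, fewer cells of a type and less RNA per cell cannot be told apart.

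The cell type label was checked with marker lists. Of 13 granulosa markers, 10 had a row, and the summed scaled FPKM of the list was 227 to 270.4 for CON libraries, 211 to 234 for LOW libraries and 189 to 206 for HIGH libraries. The list includes the members INHA and INHBA. The steroidogenic enzyme gene CYP11A1 (141 to 203) made up most of that sum. The nuclear receptors NR5A2 (14.3 to 18.5) and NR5A1 (8.77 to 14.55) were present too, as were GATA4 (3.81 to 9.74) and KITLG (1.98 to 12.6). FSHR, which encodes the receptor for follicle-stimulating hormone, stayed between 0.228 and 0.577. AMHR2 was between 0.425 and 0.834, and HSD17B1 between 0.106 and 0.649. CYP19A1, AMH and FOXL2 had no row under their symbols. All 9 stroma and smooth muscle markers were present, with sums of 4781 to 6877 for CON, 5553 to 6000.3 for LOW and 4667 to 6128 for HIGH libraries, led by LUM (1756 to 2288) and TAGLN (921 to 2832). Leukocyte sums were 14.5 to 20.3, theca sums 3.99 to 8.22 and luteal sums 13.6 to 20.2. Oocyte and endothelial sums stayed at or below 1.17 and 0.175, with BMP15 and CDH5 listed at 0 in all 9 libraries. Several defining granulosa genes were thus low or without a row, and markers of stromal cells were abundant in every group.

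The libraries also differed along gene length. In each library the median deviation of the 2204 genes with the longest genomic span (above 66023 bases) was compared with that of the 2204 genes with the shortest (below 10047 bases). The difference on the log2 scale was 0.31, -0.07 and -0.61 in CON replicates 1, 2 and 3, 0.06, -0.13 and -0.05 in LOW, and 0.38, 0.18 and -0.10 in HIGH. CON replicate 3 and HIGH replicate 1 lay at the opposite ends, so short genes stood high in the former and low in the latter.

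No member was called in any of the 3 comparisons by limma. In LOW versus CON, 0 of 9 were called (0.00783% of all genes tested), and 0 passed an unadjusted p under 0.05 (1.00% of all genes higher and 0.948% lower). In HIGH versus CON, 0 of 9 were called (0.00783%), and 1, INHA, passed the unadjusted threshold with a lower level (4.02% of all genes higher and 2.56% lower). In HIGH versus LOW, 0 of 9 were called (0.00783%), and 0 passed the unadjusted threshold (5.11% higher and 2.45% lower). Groups of libraries did not overlap for 1 of 9 members in LOW versus CON (6.17% of all genes), 1 of 9 in HIGH versus CON (9.35%) and 3 of 9 in HIGH versus LOW (18.7%). The median log2 fold change of the members was 0.02, -0.03 and -0.07 in these comparisons, beside 0.01, 0.07 and 0.06 over all genes tested. These comparisons share libraries pairwise and are not independent of each other.

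**Figure D1:**
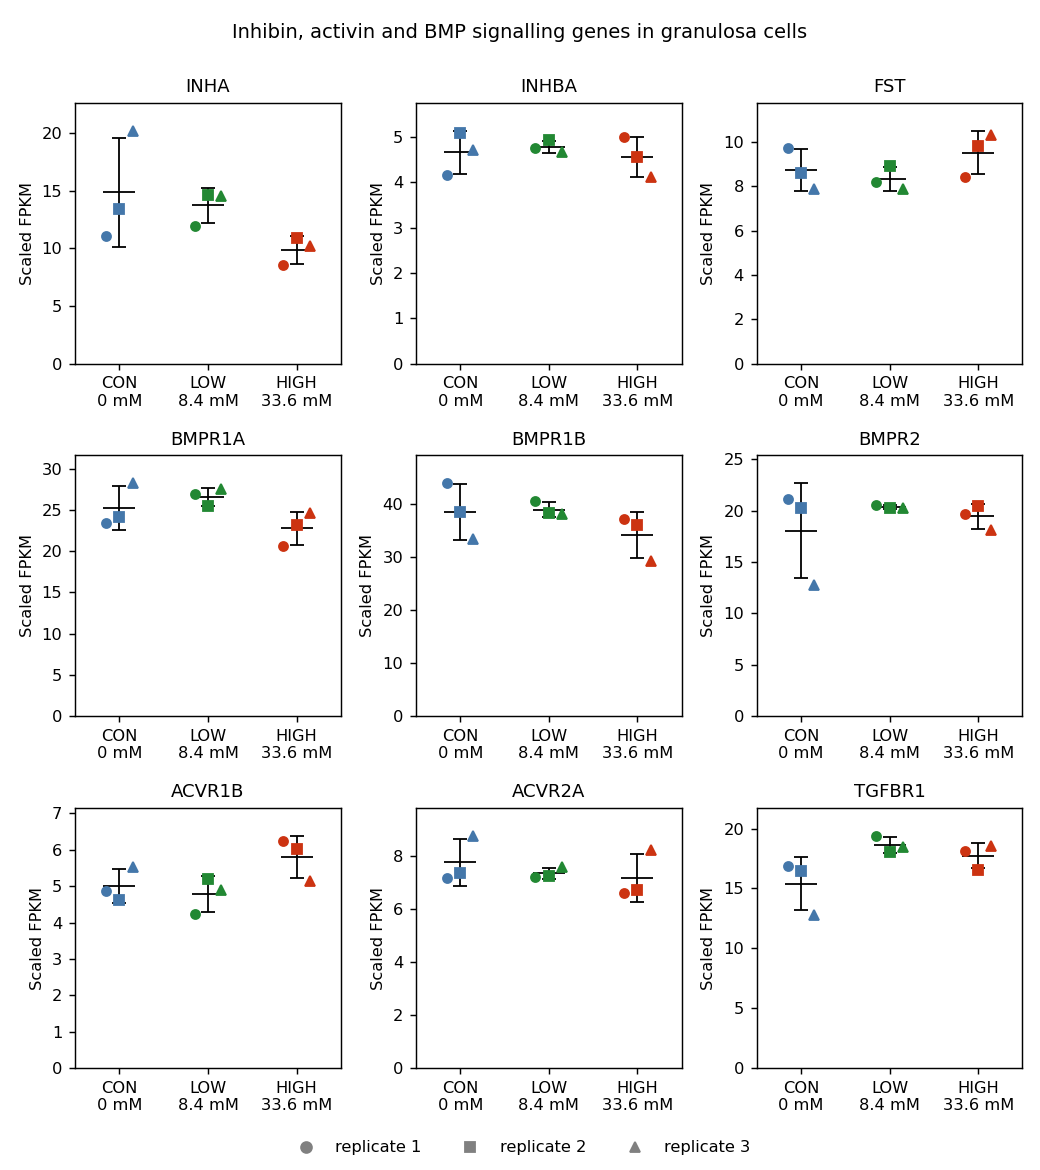
Scaled FPKM of the 9 measured members in CON (0 mM glucose), LOW (8.4 mM) and HIGH (33.6 mM). Each symbol is 1 library, and the bars give the mean ± SD of 3 libraries. INHA in HIGH lies below every CON and LOW library, and INHBA, FST, BMPR2, ACVR1B and ACVR2A overlap in all groups.

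The alpha subunit gene INHA (ENSOARG00000020243, chromosome 2, 220476722 to 220479658, a gene of 2937 bases with introns) had its lowest levels in HIGH. In CON its scaled FPKM was 11.1, 13.4 and 20.2 in replicates 1 to 3 (14.9 ± 4.73, SD, n = 3). LOW gave 12.0, 14.6 and 14.6 (13.7 ± 1.51), and HIGH gave 8.53, 10.9 and 10.2 (9.88 ± 1.22). All HIGH libraries were below all CON and LOW libraries, while CON and LOW overlapped. The HIGH level was 0.684 times that of CON (95% interval 0.49 to 0.955; log2 fold change -0.55, SE 0.21). This gave an unadjusted p of 0.030 and an adjusted p of 0.66 by limma, so the difference did not pass over all genes. Against LOW it was 0.721 times (0.516 to 1.01; unadjusted p = 0.054, adjusted p = 0.64 by limma). LOW and CON differed by a factor of 0.948 (0.679 to 1.32).

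The size of the INHA difference depended on few libraries. Leaving out CON replicate 3, where INHA was highest, gave a log2 fold change of -0.31 with an unadjusted p of 0.085. Without HIGH replicate 1, where it was lowest, the limma fit gave -0.45 with an unadjusted p of 0.10, and without HIGH replicate 3 it gave -0.57 with an unadjusted p of 0.051. CON replicate 3 and HIGH replicate 1 are also the libraries at the ends of the gene length measure, and INHA is among the genes of shortest span. Its log2 level had a Pearson's r of -0.88 with that measure over the 9 libraries. The short gene FST was at 0.38. Members of long span went both ways, with ACVR2A at -0.87 and BMPR1A at -0.79 beside BMPR2 at 0.81 and TGFBR1 at 0.62. The part of gene length in the INHA values was not tested. With the length difference of each library as a covariate, an alternative chosen after seeing the data, the HIGH versus CON value was -0.31 (SE 0.11), with an unadjusted p of 0.021 and an adjusted p of 0.47 by limma. Over all 19 alternatives the sign was the same, with values from -0.74 to -0.31 and adjusted p from 0.18 to 1.00, and the unadjusted p was under 0.05 in 15.

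Markers of GCs and of other cells were compared between HIGH and CON in the same fit. Of the 10 granulosa markers, 0 were higher and 2 lower at an unadjusted p under 0.05 (4.02% of all genes higher and 2.56% lower), INHA itself and CYP11A1, the side-chain cleavage enzyme of steroid synthesis. CYP11A1 was at 164, 174 and 203 in CON and at 141, 147 and 141 in HIGH (log2 -0.33, unadjusted p = 0.024 by limma), whereas GATA4 (0.45) and AMHR2 (0.19) had positive values that did not pass. The values of the remaining granulosa markers were negative, from -1.08 for KITLG to -0.03 for INHBA, and did not pass. STAR, the cholesterol transport protein of the theca and luteal lists, was at 6.91 ± 0.819 in CON and 4.69 ± 0.903 in HIGH (log2 -0.56, unadjusted p = 0.0087 by limma). Of 4 leukocyte markers, CD68 passed with a lower level in HIGH (log2 -0.52, unadjusted p = 0.011 by limma). In that list PTPRC (1.05), CD3E (0.35) and CD14 (0.02) had positive values that did not pass. Of the 9 stroma and smooth muscle markers, 3 passed with a higher level, COL1A1 (log2 1.54), COL1A2 (0.79) and PDGFRA (0.74). In the same list MYH11 (0.84) and COL3A1 (0.31) had positive values, TAGLN (-0.49), ACTA2 (-0.12) and DCN (-0.10) had negative values, and LUM was at 0.01, none of which passed. None of these markers was called over all genes. The part of these markers in the INHA values was not tested.

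**Figure D2:**
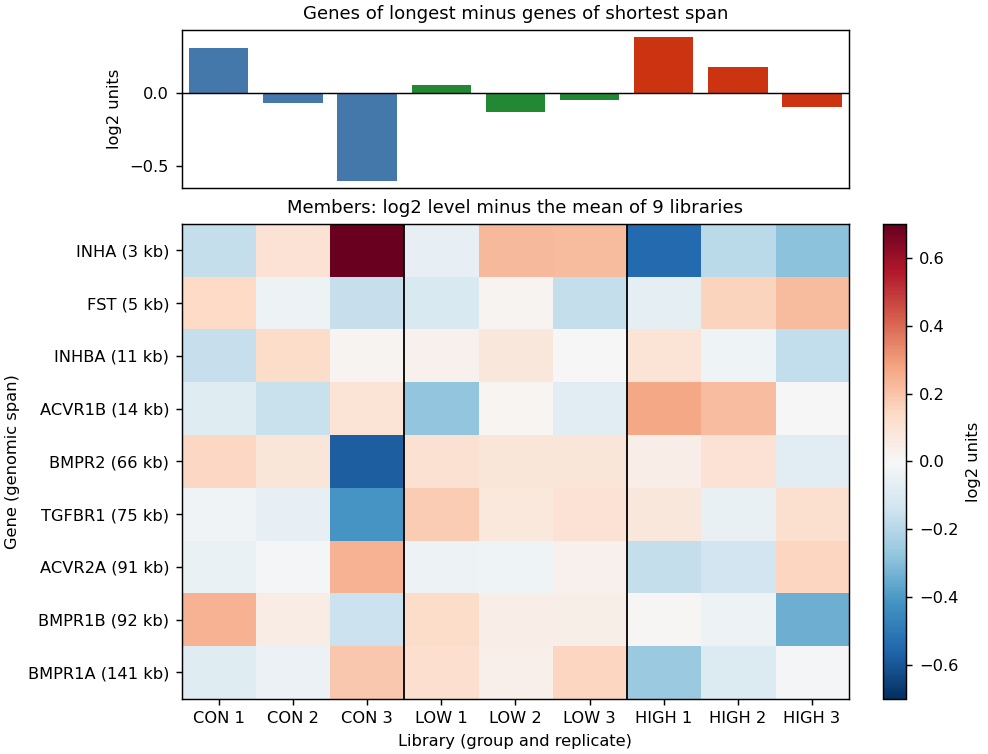
Upper plot, the median log2 deviation of the genes of longest span minus that of the shortest, in each library. Lower plot, the log2 level of each member minus its mean over 9 libraries, with members ordered by genomic span. INHA reaches 0.69 in CON replicate 3 and -0.54 in HIGH replicate 1. In CON replicate 3 the longer genes BMPR2, ACVR2A and BMPR1A are at -0.58, 0.24 and 0.19.

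The beta A subunit gene INHBA (ENSOARG00000017475, chromosome 4, 79355679 to 79366930), shared by inhibin A and activin A, was the lowest and the steadiest member. Its scaled FPKM was 4.16, 5.10 and 4.72 in CON, 4.76, 4.93 and 4.67 in LOW, and 4.99, 4.57 and 4.12 in HIGH. The highest library was 1.24 times the lowest, and all groups overlapped. Its LOW level was 1.03 times that of CON (95% interval 0.83 to 1.28), its HIGH level 0.98 times (0.789 to 1.22), and HIGH was 0.95 times LOW (0.765 to 1.18). A change of INHBA by as much as the call threshold lies outside these intervals. The same was true of every other member interval except that of INHA in HIGH versus CON.

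Follistatin (FST, ENSOARG00000008119, chromosome 16, 25630860 to 25636124) had scaled FPKM of 9.72, 8.599 and 7.87 in CON, 8.20, 8.93 and 7.86 in LOW, and 8.43, 9.82 and 10.3 in HIGH. The HIGH mean was the highest, but HIGH overlapped with both other groups. HIGH was 1.09 times CON (0.883 to 1.35) and 1.14 times LOW (0.923 to 1.41), and LOW was 0.957 times CON (0.775 to 1.18). The lowest of the 3 unadjusted p-values of FST by limma was 0.20.

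**Figure D3:**
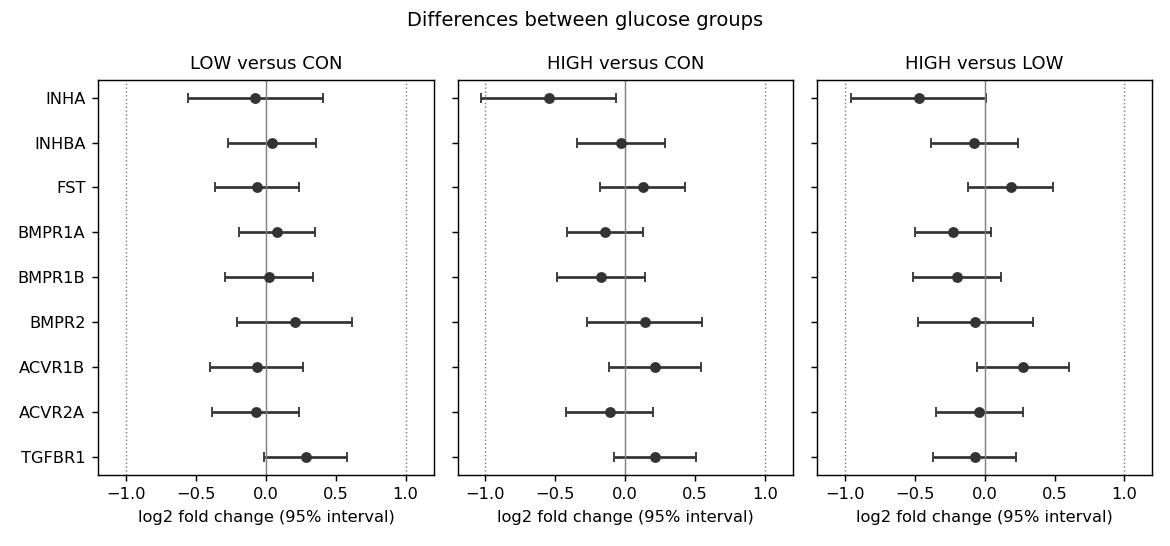
Log2 fold changes of the members with 95% intervals from the limma fit, for LOW versus CON, HIGH versus CON and HIGH versus LOW. Dotted lines mark a log2 fold change of 1 in either direction; the interval of INHA in HIGH versus CON leaves out 0, and that of TGFBR1 in LOW versus CON reaches just past it.

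Ratios within a library do not depend on the scaling factors. INHA stood to INHBA, in FPKM, as 2.67, 2.62 and 4.28 in CON (3.19 ± 0.942), 2.52, 2.96 and 3.12 in LOW (2.87 ± 0.313), and 1.71, 2.39 and 2.48 in HIGH (2.19 ± 0.421). The HIGH ratios were below every CON and LOW ratio, with a gap of 2.48 to 2.52 at the closest. The highest ratio was that of CON replicate 3 and the lowest that of HIGH replicate 1. These libraries are at the ends of the gene length measure, with which INHA had a Pearson's r of -0.88 and INHBA of -0.12. The part of gene length in this ratio was not tested. FST to INHBA was 2.34, 1.69 and 1.67 in CON, 1.72, 1.81 and 1.68 in LOW, and 1.69, 2.15 and 2.503 in HIGH, with overlap throughout. With 3 libraries against 3, an exact permutation test cannot give a p below 0.10, so these ratios are given as a description.

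**Figure D4:**
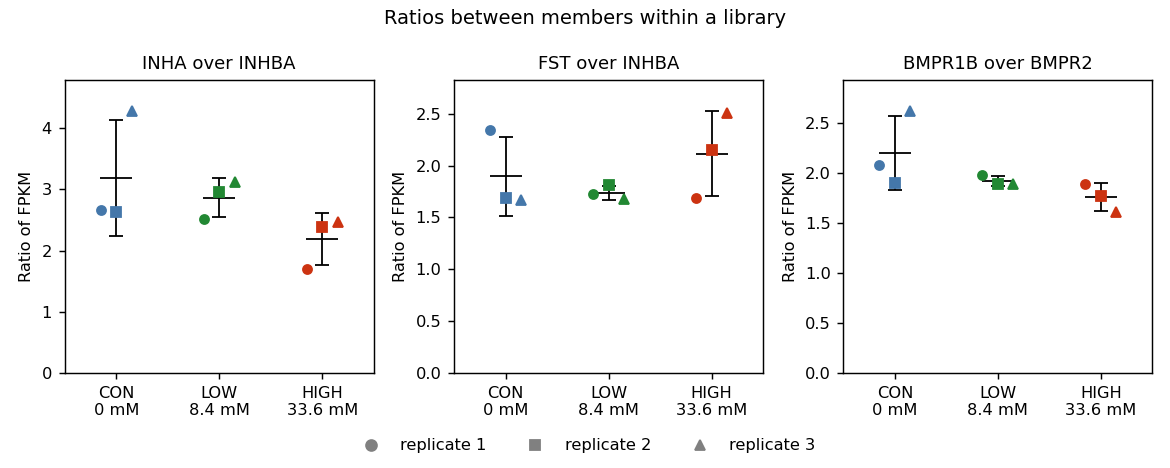
Ratio of FPKM of INHA to INHBA, FST to INHBA and BMPR1B to BMPR2 in each library, with the mean ± SD of 3 libraries per glucose group. The INHA to INHBA ratios in HIGH (1.71 to 2.48) lie below the others (2.52 to 4.28).

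BMPR1B (ENSOARG00000017161, chromosome 6, 29361947 to 29453891), a type I receptor for BMP ligands, had the highest level of the members. Its scaled FPKM was 43.9, 38.5 and 33.4 in CON, 40.6, 38.3 and 38.1 in LOW, and 37.3, 36.1 and 29.2 in HIGH. HIGH lay below LOW in all libraries but overlapped with CON. HIGH was 0.873 times LOW (95% interval 0.701 to 1.09, unadjusted p = 0.19 by limma) and 0.887 times CON (0.713 to 1.10), and LOW was 1.02 times CON (0.816 to 1.26). With the gene length covariate HIGH versus LOW was -0.29 on the log2 scale (unadjusted p = 0.0017, adjusted p = 0.19 by limma) and HIGH versus CON was -0.31 (unadjusted p = 0.0016, adjusted p = 0.37 by limma), whereas the other alternatives gave -0.28 to -0.07 in HIGH versus CON with no unadjusted p under 0.05.

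BMPR1A (ENSOARG00000000651, chromosome 25, 40997429 to 41138024), the other type I BMP receptor, was the second highest. In CON the levels were 23.4, 24.1 and 28.2, in LOW 26.9, 25.4 and 27.5, and in HIGH 20.6, 23.2 and 24.6 scaled FPKM. Again HIGH lay below LOW without overlap and overlapped with CON. The ratio of HIGH to LOW was 0.856 (0.709 to 1.03, unadjusted p = 0.094 by limma), that of HIGH to CON 0.905 (0.75 to 1.09) and that of LOW to CON 1.06 (0.876 to 1.28). BMPR1B exceeded BMPR1A in all 9 libraries, by 1.18 to 1.88 times.

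BMPR2 (ENSOARG00000017641, chromosome 2, 203653532 to 203719799), the type II BMP receptor, was nearly level except in 1 library. It had 21.1 and 20.3 scaled FPKM in CON replicates 1 and 2 and 12.8 in replicate 3, then 20.5, 20.2 and 20.2 for LOW, and 19.7, 20.5 and 18.1 for HIGH. The SD of CON was 4.59 because of replicate 3, beside 0.186 in LOW and 1.20 in HIGH. LOW was 1.153 times CON (0.868 to 1.53), HIGH 1.10 times CON (0.829 to 1.46) and HIGH 0.954 times LOW (0.719 to 1.27). Without CON replicate 3 the log2 values against CON turned from 0.21 to -0.02 for LOW and from 0.14 to -0.10 for HIGH, and with the gene length covariate that of HIGH was -0.05, none of them past the unadjusted threshold.

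TGFBR1 (ENSOARG00000010971, chromosome 2, 48381444 to 48456740), the type I receptor for TGF-β, had its lowest group mean in CON. The CON libraries had 16.8, 16.5 and 12.8 scaled FPKM, the LOW libraries 19.4, 18.1 and 18.4, and the HIGH libraries 18.1, 16.6 and 18.6. Every LOW library was above every CON library, and HIGH overlapped with both. LOW was 1.22 times CON (95% interval 0.993 to 1.49), with an unadjusted p of 0.057 and an adjusted p of 1.00 by limma. The log2 value of 0.28 became 0.16 without CON replicate 3 and 0.18 without the scaling factors, with unadjusted p-values of 0.16 and 0.26 by limma. HIGH was 1.16 times CON (0.945 to 1.42).

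The activin type I receptor ACVR1B (ENSOARG00000017232, chromosome 3, 134169941 to 134184003) was at 4.86, 4.62 and 5.52 in CON, then 4.23, 5.20 and 4.89 for LOW, and 6.25, 6.01 and 5.14 for HIGH. HIGH had the highest mean but its replicate 3 fell within the range of the other groups. The HIGH level was 1.21 times LOW (0.964 to 1.52, unadjusted p = 0.091 by limma) and 1.16 times CON (0.92 to 1.45), and LOW was 0.955 times CON (0.76 to 1.20).

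The activin type II receptor ACVR2A (ENSOARG00000009841, chromosome 2, 160457581 to 160548685) was at 7.16, 7.36 and 8.77 in CON, 7.22, 7.24 and 7.58 in LOW, and 6.59, 6.73 and 8.22 in HIGH, and all groups overlapped. LOW was 0.95 times CON (0.766 to 1.18), HIGH 0.925 times CON (0.745 to 1.148) and HIGH 0.973 times LOW (0.784 to 1.21).

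Ordered by their mean over the 9 libraries, per transcript length, the members were BMPR1B (37.3 scaled FPKM), BMPR1A (24.9), BMPR2 (19.3), TGFBR1 (17.3), INHA (12.8), FST (8.86), ACVR2A (7.43), ACVR1B (5.19) and INHBA (4.67). BMPR1B stood at the 89.1th percentile and INHBA at the 32.7th among 9512 genes with a symbol and a mean scaled FPKM of at least 1. Neighbours in this order overlapped in range, except BMPR1B with BMPR1A and ACVR2A with ACVR1B. The ratio of BMPR1B to BMPR2 was 2.20 ± 0.373 in CON, 1.92 ± 0.0489 in LOW and 1.76 ± 0.139 in HIGH.

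The transcript table splits 3 members into several transcripts, 7 in all, while 6 members have 1 transcript each. In LOW versus CON, 2 of the 13 member transcripts passed an unadjusted p under 0.05 (2.78% of 36405 transcripts tested), in HIGH versus CON 1 did (5.88%), and in HIGH versus LOW 0 did by limma (6.70%), with none called. Both of the former belong to TGFBR1 and moved in opposite directions. TCONS_00138135, which held 66.6 to 78.7% of the TGFBR1 FPKM, was at 11.2, 11.7 and 9.45 in CON and 14.5, 13.0 and 14.7 in LOW (log2 0.38, SE 0.13, unadjusted p = 0.019 and adjusted p = 1.00 by limma). TCONS_00138134, with 1.73 to 11.0%, was at 1.84, 1.07 and 0.611 in CON and at 0.452, 0.310 and 0.353 for LOW (log2 -1.33, SE 0.48, unadjusted p = 0.023 and adjusted p = 1.00 by limma). The count of 2 fell to 1 without CON replicate 1, LOW replicate 1 or LOW replicate 2, and to 0 without LOW replicate 3. The transcript of HIGH versus CON was the only INHA transcript, and this count was 2 without CON replicate 1 and 0 without HIGH replicate 1 or HIGH replicate 3. In HIGH versus LOW the count was 1 without CON replicate 1 or CON replicate 3, and 2 without HIGH replicate 3. BMPR1B rested on ENSOART00000018678 for 91.5 to 98.3% of its FPKM and BMPR2 on ENSOART00000019195 for 86.9 to 95.1%, so for these the gene level is mainly that of 1 transcript.

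The other genes of the pathway were taken from a list of 57, of which 49 had a row and 42 were tested. AMH, SMAD7, ID2 and ID4 were among those without a row under their symbols, and BMP5, BMP15, GDF5, MSTN, NODAL, ACVRL1 and CHRD did not pass the filter on low values. None of the 42 was called in any comparison by limma. At an unadjusted p under 0.05, 0 passed in LOW versus CON, 2 passed in HIGH versus CON, both higher, and 5 passed in HIGH versus LOW, 3 higher and 2 lower. Over all genes tested, 1.00% were higher and 0.948% lower in LOW versus CON, 4.02% and 2.56% in HIGH versus CON, and 5.11% and 2.45% in HIGH versus LOW. The median log2 fold change of the 42 was 0.00, 0.09 and 0.04, near the medians of all genes. The count of LOW versus CON was 1 without CON replicate 1. For HIGH versus CON it was 9 without CON replicate 1, 8 without HIGH replicate 3, 1 without CON replicate 3 and 0 without HIGH replicate 2. For HIGH versus LOW it was 3 without LOW replicate 2, 2 without LOW replicate 1 or HIGH replicate 2, 1 without HIGH replicate 1 and 0 without LOW replicate 3.

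Among the ligands, 9 of 15 were tested, and TGFB1, which encodes TGF-β1, passed the unadjusted threshold in HIGH against both other groups. It was at 9.26, 6.76 and 3.67 scaled FPKM in CON, 5.71, 7.04 and 4.91 in LOW, and 17.4, 13.0 and 8.09 in HIGH. HIGH lay above LOW but overlapped with CON. The log2 fold change was 1.06 against LOW (SE 0.36, unadjusted p = 0.016, adjusted p = 0.62 by limma) and 0.98 against CON (unadjusted p = 0.022, adjusted p = 0.66 by limma). GDF11, a ligand of activin receptors, and BMP7 also passed in HIGH versus LOW and are named here after their values were seen. GDF11 was at 3.55, 3.55 and 3.76 in LOW and 4.57, 4.46 and 4.56 in HIGH (log2 0.32), and BMP7 at 0.0589, 0.132 and 0.528 in LOW and 0.0268, 0 and 0 in HIGH, levels that rest on few fragments.

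Of the receptors and co-receptors, 9 of 10 were tested and 1 passed. BAMBI, a pseudoreceptor that lacks the kinase part and dampens BMP, activin and TGF-β signals, was at 9.45, 10.9 and 10.5 in CON, 11.7, 10.4 and 11.3 in LOW, and 12.5, 15.2 and 12.6 in HIGH. HIGH lay above both groups (log2 0.38 against CON, SE 0.13, unadjusted p = 0.015 and adjusted p = 0.66 by limma). TGFBR3, or betaglycan, the co-receptor through which inhibin acts against activin, was at 2.88, 2.73 and 2.84 in CON, 2.42, 2.43 and 2.21 in LOW, and 2.85, 2.86 and 2.77 in HIGH. LOW lay below both other groups without overlap, yet no comparison passed the unadjusted threshold, the lowest p being 0.096 by limma.

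All 7 SMAD genes with a row were tested, and 1 passed. SMAD5, one of the carriers of BMP signals, was at 19.8, 20.1 and 20.1 in CON, 22.6, 21.5 and 23.1 in LOW, and 17.3, 18.0 and 19.9 in HIGH. HIGH was below LOW in all libraries (log2 -0.28, SE 0.10, unadjusted p = 0.023, adjusted p = 0.63 by limma). The carriers of activin signals, SMAD2 at 33.3, 35.1 and 33.3 and SMAD3 at 5.67, 5.43 and 6.60 (means of CON, LOW and HIGH), did not pass. The same was true of SMAD4, the partner of all receptor-activated SMADs, at 43.4, 46.8 and 41.6.

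Of 10 secreted antagonists, 7 were tested and 0 passed in any comparison by limma. The follistatin-like gene FSTL3, which also binds activin, was between 22.9 and 32.0 in 8 libraries and at 3.22 in HIGH replicate 3, so its HIGH versus CON value of -1.06 carried an SE of 0.69. Of 8 other regulators, 6 were tested. FURIN, a protease that cleaves the precursors of these ligands, was at 33.8, 45.7 and 38.1 in LOW and 50.8, 49.7 and 54.9 in HIGH (log2 0.41, SE 0.15, unadjusted p = 0.021, adjusted p = 0.63 by limma), and at 38.3, 49.95 and 47.8 in CON. Of 6 target genes, 4 were tested and 0 passed by limma. ID1, a direct target of BMP-activated SMADs, had means of 60.8 ± 13.6, 62.5 ± 8.35 and 59.9 ± 7.24 in CON, LOW and HIGH, and ID3 had 27.0 ± 8.10, 28.1 ± 0.937 and 24.0 ± 5.32.

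**Figure D5:**
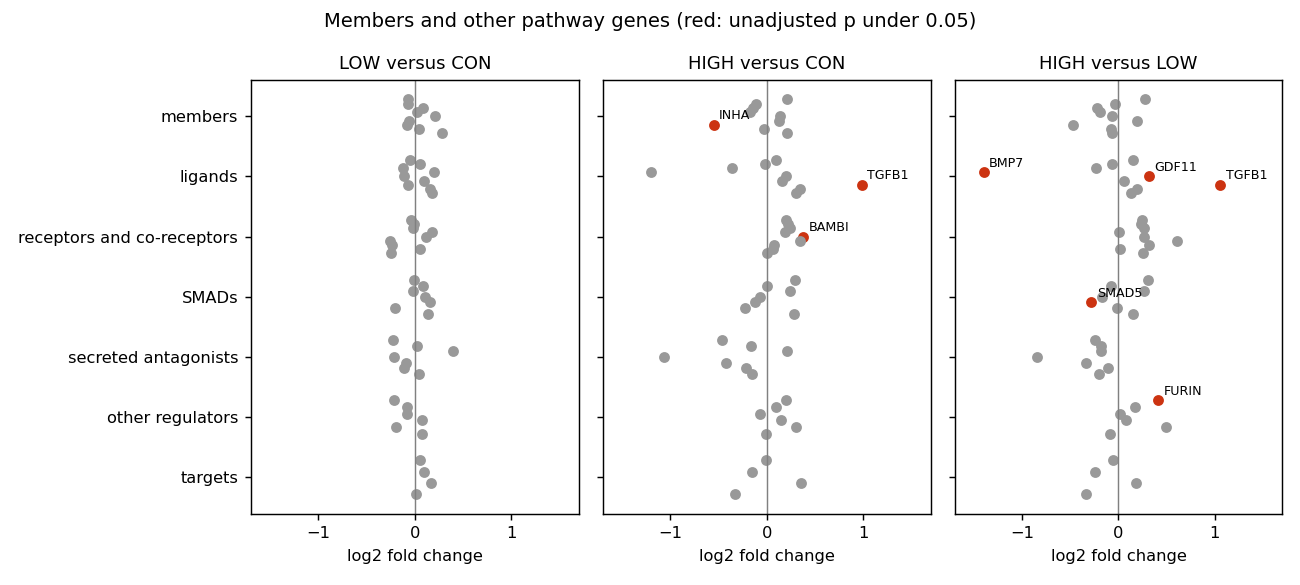
Log2 fold changes of the 9 members and of 42 other pathway genes, grouped by role, in LOW versus CON, HIGH versus CON and HIGH versus LOW. Red points, with names, passed an unadjusted p under 0.05; 1 member and 2 other genes did in HIGH versus CON, and 0 members and 5 other genes did in HIGH versus LOW.

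Partner genes were compared across the 9 libraries in 3 relations, with two-sided exact permutation p-values adjusted over the 3. INHA and INHBA gave Pearson's r of 0.24 (exact p = 0.54, adjusted p = 0.54) and Spearman's rho of 0.25 (exact p = 0.52, adjusted p = 0.52). INHBA and FST gave r of -0.67 (exact p = 0.050, adjusted p = 0.15) and rho of -0.45 (exact p = 0.23, adjusted p = 0.34). INHA and FST gave r of -0.55 (exact p = 0.13, adjusted p = 0.19) and rho of -0.55 (exact p = 0.13, adjusted p = 0.34). On deviations from the group means the values of r were 0.12, -0.65 and -0.31. With the 2 libraries that lay farthest out for the first gene removed they were 0.77, -0.09 and -0.79, so the relation of INHBA with FST rested on CON replicate 1 and HIGH replicate 3. That relation also shrank to -0.10 without the scaling factors, and no relation passed after adjustment with all 9 libraries.

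Among genes with a symbol and a mean scaled FPKM of at least 1, the patterns closest to INHA over the 9 libraries were those of MRPS9 (Pearson's r 0.99), NEIL2 (0.99) and YIF1B (0.98). Closest to INHBA were SLC35B4 (0.88), PCDHB7 (0.87) and PDCL (0.82), and closest to FST were MAVS (0.92), ESR1 (0.91) and PDE4A (0.91). These correlations were the highest of many and are a description without a test.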

How the data were processed

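RNA of ovine GCs was sequenced in 9 libraries, 3 per group, and groups and replicate numbers were taken from the GEO titles. The authors aligned the reads with HISAT2, assembled transcripts and deposited FPKM per gene and per transcript, which were used here. The build behind the coordinates is not given in the sources used here. The submitters' processing notes also name TopHat2, STAR 2.5.1b and HTSeq 0.6.0. The authors also deposited tables named as read counts (unit: other). For transcripts these equal FPKM times genomic span times 1 factor per library, within 3 percent in 100% of those checked. They are therefore not numbers of reads, and the factor served only as the rough guide to depth. Here 0 columns were left without a sample.

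Each library was divided by its median FPKM over genes that reached an FPKM of 1 in all libraries. These medians were first divided by their geometric mean. limma 3.58.1 (R 4.3.3, trend of the spread on the mean) was fitted to log2(scaled FPKM + 0.1) of genes that reached an FPKM of 0.1 in 3 libraries or more, with 3 groups in 1 model. The procedure was tested on simulated data, which lacked the differences along gene length seen between these libraries. The transcript fit used spans of at least 300 bases and left out transcripts of genes without a symbol, whose FPKM do not add up to that of the gene, a choice made after seeing the data.

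The members and lists were chosen with earlier results of these data known. Other pathway genes were named by an unadjusted p under 0.05 (at most 3 per comparison) or, for their role, AMH, SMAD2, SMAD3, SMAD4, ID1, ID3, TGFBR3 and FSTL3. For likeness the 3 nearest genes were named. BMP7, GDF11 and the genes of the closing section were named after their values were seen.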

Additional observations from a re-analysis of the deposited data

How the results depend on the processing

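Each fold change of a member was recomputed under 19 alternatives. Of the 513 values, 494 kept their side of an unadjusted p of 0.05, 4 no longer passed, 15 newly passed and 0 turned with either value passing; 22 changed sign with neither passing. The lowest adjusted p of a member was 0.18. The genes called were 2 in each comparison, none of them with a symbol. With a filter at an FPKM of 1 in 3 libraries they were 1 in LOW versus CON and 1 in HIGH versus LOW, with only genes with a symbol 0 in all 3, and with the gene length covariate 4, 6 and 4 in LOW versus CON, HIGH versus CON and HIGH versus LOW. With only the groups compared they were 1 in HIGH versus CON and 6 in HIGH versus LOW. Leaving out 1 library gave 0 to 5, 2 to 7 and 1 to 4.

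Members passing the unadjusted threshold numbered 0, 1 and 0. They were 1, 2 and 4 with the gene length covariate, 1 in LOW versus CON with no filter or only genes with a symbol, and 0 in HIGH versus CON and 1 in HIGH versus LOW with only the groups compared; leaving out 1 library gave 0 to 1 in each comparison. Other pathway genes passing, 0, 2 and 5, became 3, 5 and 7 with the covariate, and 2 in LOW versus CON and 5 in HIGH versus CON without scaling; leaving out 1 library gave 0 to 1, 0 to 9 and 0 to 6. Of the member transcripts, 1 passed in LOW versus CON without scaling, and leaving out 1 library gave 0 to 2, 0 to 2 and 0 to 2. Left-out libraries moved the correlation of INHA with FST between -0.79 and -0.38. The cause of these shifts was not tested.

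Same-numbered libraries correlated between -0.03 and 0.41 in their deviations from the group means, and libraries of different number between -0.43 and 0.14. The correlations were 0.17 to 0.41 among replicates 1, 0.09 to 0.41 among replicates 3 and -0.03 to 0.01 among replicates 2. Those of replicates 1 with replicates 3 were -0.43 to -0.08. Not every same-numbered pair exceeded 0.1, and the numbers were not taken as pairing the libraries. Whether they mark a pairing was not tested. With a replicate block, 4 genes were called and 6 other pathway genes passed in HIGH versus CON, and 1 member, INHA, passed in HIGH versus LOW. The INHA value of HIGH versus CON stayed at -0.55, with an SE of 0.15 (unadjusted p = 0.0076, adjusted p = 0.30 by limma). The alternatives with edgeR and DESeq2 were planned only for read counts and were not run, since no table holds reads. With 3 libraries per group, the intervals printed beside the fold changes limit what can be told of the members.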

Other observations

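Among the ligand genes of the pathway, chosen here after their values were seen, BMP6 had the highest level. It was at 26.8, 33.1 and 40.6 scaled FPKM in CON, 28.6, 31.8 and 30.8 in LOW, and 19.7, 28.4 and 30.4 in HIGH, with overlap between the groups and no unadjusted p under 0.05 by limma in any comparison. BMP4 followed with 13.0 to 16.7 over the 9 libraries, and BMP2 was between 4.40 and 5.41. The oocyte ligand gene GDF9 was between 0.532 and 0.871, and BMP15 was listed at 0 throughout.

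The BMP antagonist gene NBL1 ranged from 45.1 in HIGH replicate 1 to 105 in CON replicate 3, the same libraries in which INHA was lowest and highest. These libraries are also at the ends of the gene length measure, and NBL1, with 1582 bases, is like INHA among the genes of shortest span. A link between the 2 genes was not tested. NBL1 passed an unadjusted p under 0.05 by limma in 0 of 3 comparisons.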
